A study of Drosophila melanogaster with 2 samples.

Results

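The genes analysed here code for the factors that start and extend protein synthesis, and the measurement is how strongly the chromatin protein ADD1 was called at their transcription starts. They are the 52 genes whose symbol begins with eIF or eEF in the Ensembl annotation of the Drosophila melanogaster genome (dm6), out of 18277 annotated genes, of which 13968 are protein-coding. Of the 52, 44 are initiation factor genes (eIF) and 8 are elongation factor genes (eEF). The data are ChIP-seq peak lists from whole embryos of mixed sex aged 0 to 16 h. Both libraries came from the ADD1-MiMIC-GFP strain, in which an eGFP exon inside an ADD1 intron yields an ADD1-GFP fusion protein, and chromatin was precipitated with an anti-GFP antibody according to the sample descriptions, while the antibody field gives CG8290, another name for ADD1. The 2 libraries are biological replicates of a single group, with the numbers 1 and 3, and no control library was analysed here. An embryo collection mixes all cell types and 16 h of development, so a call does not say in which cells or at which stage the tagged protein was present at a gene. The depth of the libraries is unknown.

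Protein synthesis begins when a ternary complex of eIF2, GTP and initiator tRNA joins the small ribosomal subunit together with eIF1, eIF1A, eIF5 and the large eIF3 complex. The cap-binding complex eIF4F, made of the cap binder eIF4E, the scaffold eIF4G and the RNA helicase eIF4A, brings in the mRNA, and eIF2B recharges eIF2 with GTP after each round. Elongation then runs on eEF1, which delivers aminoacyl-tRNA, and eEF2, which moves the ribosome along. Most of these genes belong to the housekeeping set that every cell expresses, and housekeeping promoters in flies often carry the DNA replication-related element (DRE, TATCGATA), which the factor DREF binds. The fly genome also holds duplicated copies of some initiation factor genes, and eIF4E3 and eIF4G2 are known for a role in the male germline. ADD1 is known as a chromatin protein with a domain related to that of mammalian ATRX, which is linked to heterochromatin.

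The promoters that carry the main contrasts are printed below, each as 90 bases from Release 6 of the genome, 5′ to 3′ on the strand of the gene, with 80 bases before the start and 10 from the start on. Where a gene has several starts, the start nearest to the summit of its strongest call was used. Capitals mark the DRE core TCGATA on either strand (TATCGA when read on the other strand), and the whole octamer TATCGATA holds it on both. In eIF3f1 capitals also mark CTTTT at the start, the core of the TCT initiator known from ribosomal protein genes. The 3 genes shown next have the octamer and a peak that passed the authors' reproducibility threshold.
eEF1gamma (chr3R:29220092-29220181, plus strand): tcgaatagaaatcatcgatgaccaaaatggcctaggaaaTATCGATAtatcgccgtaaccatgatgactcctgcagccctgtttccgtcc
eIF4B (chr3L:27858262-27858351, minus strand): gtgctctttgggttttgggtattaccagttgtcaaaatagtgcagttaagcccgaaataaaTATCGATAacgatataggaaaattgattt
eIF3a (chr3R:4433886-4433975, minus strand): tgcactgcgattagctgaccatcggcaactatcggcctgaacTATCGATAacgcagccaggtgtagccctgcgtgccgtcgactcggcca
The next 3 have the octamer and a weaker call that did not pass.
eIF2gamma (chr3R:15263449-15263538, minus strand): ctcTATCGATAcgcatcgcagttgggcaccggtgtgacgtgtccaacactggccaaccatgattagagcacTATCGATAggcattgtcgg
eIF3f1 (chr3R:4714173-4714262, minus strand): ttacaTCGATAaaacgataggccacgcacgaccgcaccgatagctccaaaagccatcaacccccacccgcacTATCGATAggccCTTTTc
eEF1delta (chr2L:10232427-10232516, plus strand): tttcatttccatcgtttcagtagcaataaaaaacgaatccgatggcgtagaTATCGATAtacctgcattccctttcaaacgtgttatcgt
The others are general initiation factor genes, each followed by the duplicated copies set against it further on.
eIF4E1 (chr3L:9402451-9402540, minus strand): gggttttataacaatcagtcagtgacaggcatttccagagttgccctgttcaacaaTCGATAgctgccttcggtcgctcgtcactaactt
eIF4E3 (chr3L:8229144-8229233, plus strand): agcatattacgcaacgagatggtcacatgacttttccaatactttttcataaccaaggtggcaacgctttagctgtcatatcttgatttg
eIF4E6 (chr3R:29027165-29027254, minus strand): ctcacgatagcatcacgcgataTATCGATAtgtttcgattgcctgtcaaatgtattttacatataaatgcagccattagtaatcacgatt
eIF4G1 (chr4:930706-930795, minus strand): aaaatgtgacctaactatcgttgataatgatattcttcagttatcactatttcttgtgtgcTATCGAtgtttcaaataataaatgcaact
eIF4G2 (chr3R:23819228-23819317, minus strand): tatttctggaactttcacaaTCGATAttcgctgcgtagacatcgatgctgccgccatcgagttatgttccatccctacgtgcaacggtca
eIF3d1 (chr3R:23679959-23680048, plus strand): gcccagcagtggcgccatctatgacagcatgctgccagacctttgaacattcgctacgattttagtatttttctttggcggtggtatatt
eIF3d2 (chr3R:12195002-12195091, minus strand): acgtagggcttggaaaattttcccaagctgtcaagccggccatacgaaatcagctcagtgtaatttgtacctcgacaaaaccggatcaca
The octamer was present once in eEF1gamma, eIF4B, eIF3a, eIF3f1 and eEF1delta, and 2 times in eIF2gamma. Of the 4 duplicated copies shown, eIF4E6 has the octamer and eIF4G2 the core alone, while eIF4E3 and eIF3d2 have neither in these 90 bases.

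ADD1-GFP was called at the starts of most translation factor genes, and at more of them than of protein-coding genes as a whole. A call counted for a gene when its summit lay within 500 bp of any of the gene's annotated starts. In the pooled list of 30000 calls made by the authors on both replicates together, 33 of the 52 genes had such a call (63.5%, exact 95% interval 49 to 76.4%), against 49.3% of the 13968 protein-coding genes. The authors deposited this list as peaks and background, so a call alone is weak evidence of ADD1-GFP at a gene. At called genes without a kept peak, the deposited −log10 q-value ran from 3.47 at eIF3m down to 0.294 at eIF3e. The authors' irreproducible discovery rate (IDR) procedure, which compares ranks between replicates, kept 4402 peaks, and these were the 4402 pooled calls of highest signal. A kept peak lay at 20 of the 52 genes (38.5%, interval 25.3 to 53%), against 22.9% of protein-coding genes. Among genes with a call, a kept peak was present at 60.6% of translation factor genes and at 46.5% of protein-coding genes. The interval for any call just reaches the share of protein-coding genes, and the interval for a kept peak lies above it. Intervals cover counting error over genes only and are no test, and the genes were chosen with earlier results of these data known. Shares by number of annotated starts are given further on. The median rank of the strongest call, where 1 is the highest signal in the list, was 3097 over the 33 called genes and 4816 over the called protein-coding genes.

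**Figure D1:**
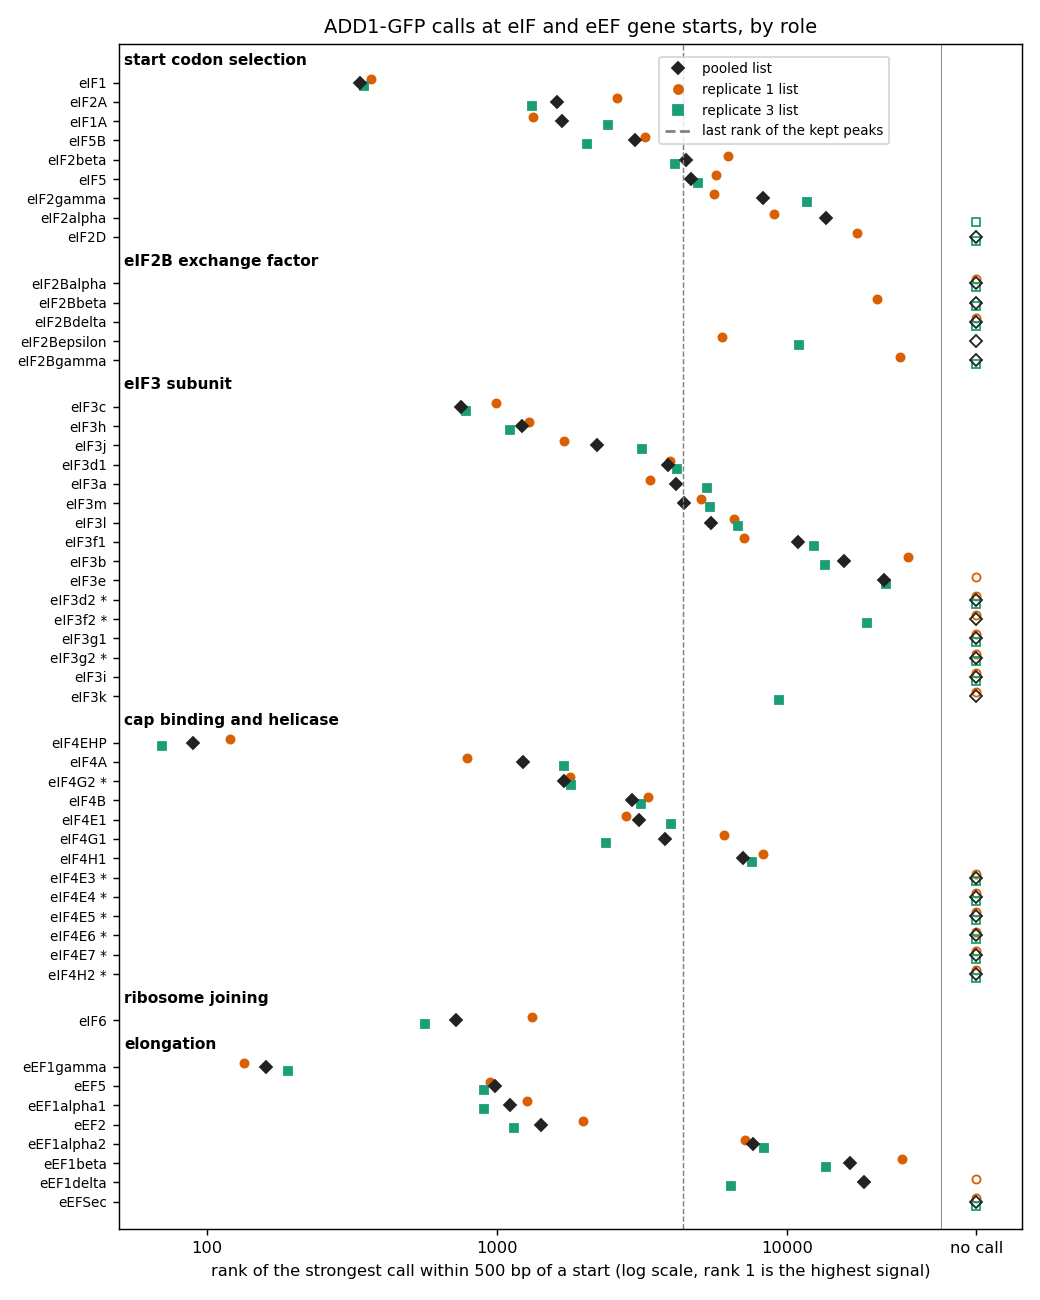
Rank of the strongest ADD1-GFP call within 500 bp of a start for each of the 52 genes (log scale, high signal to the left) in the pooled list and in each replicate list, by role. Open symbols at the right mark lists with no call, an asterisk marks duplicated copies grouped as germline paralogues, and the dashed line is the last kept rank, 4402. No eIF2B gene has a pooled call, and 9 of the 10 genes with an asterisk have none.

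Of the genes that act in start codon selection, 8 of 9 had a pooled call (88.9%, interval 51.8 to 99.7%) and 4 had a kept peak (44.4%, 13.7 to 78.8%), against 49.3% and 22.9% of protein-coding genes. eIF1, which guards against starts at the wrong codon, had the strongest call of this set, with rank 338 in the pooled list, 369 in replicate 1 and 349 in replicate 3, and a pooled signal of 315.6 on the scale of the authors' caller. The summit of that call (chr3L:3222930-3223099) lay 300 bp upstream of the eIF1 start and 81 bp from the start of RpL28, a ribosomal protein gene on the other strand. Both genes are components of translation, and the call cannot be assigned to either alone. eIF2A, known in mammals as an alternative carrier of initiator tRNA, ranked 1611 in the pool, 2601 in replicate 1 and 1325 in replicate 3. eIF1A, which works with eIF1 in the decoding site, ranked 1673, 1335 and 2428 in the same lists, with its summit 42 bp from the start of Vps39. eIF5B, the GTPase that joins the ribosomal subunits, ranked 3004, 3255 and 2042. All 4 were among the 4402 strongest calls of each replicate as well.

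The 3 subunits of eIF2 itself had calls, but none was kept. eIF2beta stood closest, with rank 4499 in the pool and 4115 in replicate 3, inside the 4402 strongest calls of that replicate, and rank 6251 in replicate 1. eIF2gamma, the subunit that binds GTP and the tRNA, ranked 8252 in the pool, 5614 in replicate 1 and 11748 in replicate 3. eIF2alpha, whose phosphorylation turns initiation down under stress, ranked 13618 in the pool and 9027 in replicate 1, and had no call in replicate 3. eIF5, the factor that stimulates GTP hydrolysis by eIF2, ranked 4671 in the pool. eIF2D, which can bring tRNA to the ribosome outside the usual route, had no pooled call and only a weak call in replicate 1, at rank 17494.

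None of the 5 genes for the eIF2B exchange factor had a pooled call within 500 bp of a start (0 of 5, with an exact upper bound of 52.2%). Replicate 1 had calls at 3 of them, at ranks 5961 for eIF2Bepsilon, the catalytic subunit, 20520 for eIF2Bbeta and 24587 for eIF2Bgamma. Replicate 3 had a call at eIF2Bepsilon alone, at rank 11053, and eIF2Balpha and eIF2Bdelta had none in any list. The pooled call nearest to eIF2Bbeta, of rank 2 in the pool, had its summit 683 bp from the eIF2Bbeta start and 36 bp from that of Ugalt, a UDP-galactose transporter gene on the other strand. It falls outside the window used here and is counted at 1000 bp. Nearest pooled summits were 1261 bp from eIF2Bgamma, 2958 bp from eIF2Bdelta, 4770 bp from eIF2Bepsilon and 27455 bp from eIF2Balpha.

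Of the 16 genes for eIF3 subunits, 10 had a pooled call (62.5%, interval 35.4 to 84.8%) and 5 a kept peak (31.2%, 11 to 58.7%), against 49.3% and 22.9% of protein-coding genes, shares that lie inside both intervals. With the duplicated copies set apart, 10 of 13 had a call (76.9%) and 5 a kept peak (38.5%). The strongest was at eIF3c, a core scaffold subunit, with rank 756 in the pool, 997 in replicate 1 and 781 in replicate 3. eIF3h followed at ranks 1227, 1291 and 1110 in the same lists, with its summit 4 bp downstream of a start. eIF3j, a loosely bound subunit, ranked 2216, 1701 and 3160. These 3 were among the 4402 strongest calls of both replicates. eIF3d1, for the subunit that can bind the mRNA cap in human cells, ranked 3886, 3967 and 4200, close to the limit in every list. eIF3a, for the largest scaffold subunit, ranked 4155 in the pool with a signal of 100.7, and was the translation factor gene with the weakest kept peak, at 3386 in replicate 1 and 5302 in replicate 3.

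eIF3m lay on the other side of the threshold, with rank 4415 and a signal of 96.23, against a signal of 96.44 for the last kept peak of the list. The remaining eIF3 genes with a call were eIF3l at rank 5479, eIF3f1 at 10938, eIF3b at 15790 and eIF3e at 21701. The eIF3b call was 5 bp from the start of Patronin, a microtubule gene, and at -342 bp from the nearest eIF3b start (negative values are upstream). eIF3g1, eIF3i and eIF3k had no pooled call, nor had the duplicated copies eIF3d2, eIF3f2 and eIF3g2. Replicate 3 alone had a call at eIF3k, at rank 9397. At eIF3g1, 77% of the 32-base words within 250 bp of the 5′ end occur once in the genome, against all such words at the other 18 genes without a call. Subunits of the same complex therefore ranged from a pooled rank of 756 to no call at all.

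Of the 13 genes for cap binding and helicase factors, 7 had a pooled call (53.8%, interval 25.1 to 80.8%) and 6 a kept peak (46.2%, 19.2 to 74.9%), against 49.3% and 22.9% of protein-coding genes. With the duplicated copies set apart, 6 of 6 had a pooled call (interval 54.1 to 100%) and 5 a kept peak (83.3%, 35.9 to 99.6%). The strongest call of all 52 genes was at eIF4EHP, which codes for a cap-binding protein that does not bind eIF4G and represses mRNAs such as caudal in the early embryo. It ranked 90 in the pool, 120 in replicate 1 and 70 in replicate 3, with signals of 497.9, 211.6 and 292.6, each on the scale of its own list. Its summit (chr3R:24108988-24109360) lay between eIF4EHP and CG18428, 236 bp from the eIF4EHP start and 140 bp from that of CG18428. Away from its own start, the long eIF4EHP gene held 12 further pooled calls in its body, 3 of them kept, the best at rank 1147. Summits near starts of other genes were not set apart in this count. eIF4A, the helicase, ranked 1229 in the pool, 789 in replicate 1 and 1702 in replicate 3, and its call lay 111 bp downstream of an internal start (chr2L:5982262-5982685).

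eIF4B, which stimulates the helicase, ranked 2935 in the pool, 3329 in replicate 1 and 3157 in replicate 3. The gene lies at chr3L:27842669-27858271, in the pericentric part of the arm, and its summit was 55 bp upstream of the start, inside an intron of a long non-coding RNA gene. Only 57.9% of the 32-base words within 250 bp of the eIF4B start occur once in the genome, against all such words at the 32 other called genes. How repeated sequence affects its rank was not tested. eIF4E1, the main cap binder, ranked 3097, 2799 and 4006 in the pool, replicate 1 and replicate 3. eIF4G1, the scaffold and the only translation factor gene of the set on chromosome 4, ranked 3800 in the pool with 6084 in replicate 1 and 2387 in replicate 3, the widest gap between replicates among the kept genes. On chromosome 4, 96.2% of 80 protein-coding genes had a pooled call and 43.8% a kept peak, so a call there is common. eIF4H1, another helicase cofactor, ranked 7081 and was not kept.

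eIF6, which keeps the large ribosomal subunit from joining too early, ranked 725 in the pool, 1324 in replicate 1 and 564 in replicate 3. The summit was 113 bp from the eIF6 start and 84 bp from the start of an antisense RNA gene, asRNA:CR45928, inside whose exon it fell.

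Among the 8 elongation factor genes, 7 had a pooled call and 4 a kept peak, against 49.3% and 22.9% of protein-coding genes. With so few genes, the intervals given further on (47.3 to 99.7% and 15.7 to 84.3%) include those shares. eEF1gamma, the scaffold subunit of the exchange complex, had the highest rank, with 160 in the pool, 135 in replicate 1 and 191 in replicate 3 and signals of 418.3, 201.9 and 213.8. Its peak (chr3R:29220012-29220241) had its summit 76 bp upstream of the start, and the DRE octamer printed above lies within 100 bp of that summit. eEF5 (formerly eIF5A), which eases the formation of difficult peptide bonds and was counted here with elongation, ranked 986, 946 and 905, with its summit 7 bp downstream of its start. eEF1alpha1, the main carrier of aminoacyl-tRNA, ranked 1115 in the pool, 1272 in replicate 1 and 907 in replicate 3. eEF2, the translocase, ranked 1416, 1988 and 1143, with its summit 2 bp downstream of a start. All 4 were among the 4402 strongest calls of both replicates.

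The other elongation factor genes ranked far lower. eEF1alpha2, a second gene for the same carrier, ranked 7681 in the pool, 7166 in replicate 1 and 8374 in replicate 3. eEF1beta, for a nucleotide exchange subunit, ranked 16501, 24939 and 13664, and its call lay between eEF1beta and Psi, 252 bp from the Psi start and at -256 bp from that of eEF1beta. eEF1delta, for the other exchange subunit, ranked 18524 in the pool and 6403 in replicate 3, and had no call in replicate 1. eEFSec, the carrier for selenocysteine, had no call in any list, and the nearest pooled summit was 5046 bp away. The subunits of the eEF1 complex thus lay far apart in the pooled list, with eEF1gamma at rank 160 and eEF1delta at rank 18524.

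Initiation factor genes were called in a smaller share than elongation factor genes, but the interval over 8 elongation genes is wide. A pooled call was present at 26 of 44 initiation factor genes (59.1%, interval 43.2 to 73.7%) and at 7 of 8 elongation factor genes (87.5%, 47.3 to 99.7%). A kept peak was present at 16 initiation factor genes (36.4%, 22.4 to 52.2%) and at 4 elongation factor genes (50%, 15.7 to 84.3%), and the intervals overlap in both cases. The shares of protein-coding genes, 49.3% with a call and 22.9% with a kept peak, lie inside the intervals of both groups. Without the duplicated copies, 25 of 34 initiation factor genes had a call (73.5%) and 15 a kept peak (44.1%). The median rank of the strongest call was 3448.5 over called initiation factor genes and 1416 over called elongation factor genes. Over called protein-coding genes it was 4816. Ranks ran between 90 and 21701 in the initiation group and between 160 and 18524 in the elongation group. No test was made, since the genes lie in a single genome and are not replicates. Of the kept peaks, 7 of 16 at initiation factor genes also had a start of another gene within 500 bp of the summit, and 0 of 4 at elongation factor genes did. No such share over all kept protein-coding genes is given here, and 4 genes are too few to set the groups apart.

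**Figure D2:**
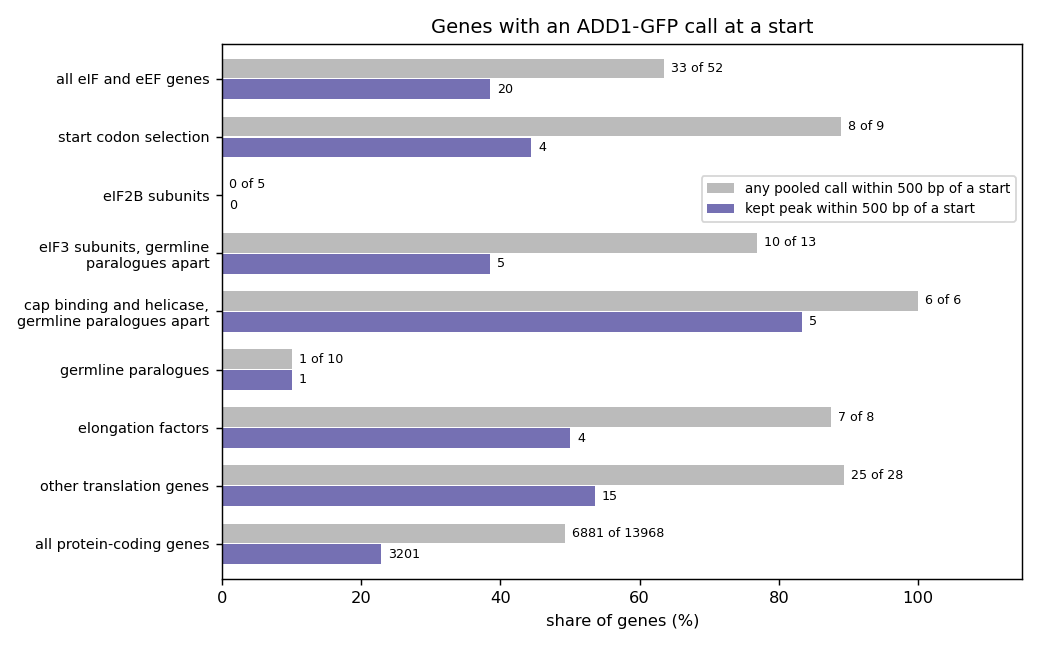
Share of genes with any pooled call (grey) and with a kept peak (purple) within 500 bp of a start, in percent, with the number of genes beside each bar. The eIF3 bars and the cap-binding and helicase bars leave out the germline paralogues. Bars for the cap-binding and helicase genes so counted (6 of 6), the other translation genes (25 of 28) and start codon selection (8 of 9) are the longest. The shortest are those of eIF2B (0 of 5) and the germline paralogues (1 of 10), and all protein-coding genes are at the bottom.

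A pooled call was present at most of the general initiation factor genes and at few of their duplicated copies. The 10 copies were grouped as germline paralogues: eIF4E3, eIF4E4, eIF4E5, eIF4E6, eIF4E7, eIF4G2, eIF3d2, eIF3f2, eIF3g2 and eIF4H2. A role in the male germline is known for eIF4E3 and eIF4G2, and the others were put with them as further copies of a general gene, with no measure of their expression used here. Of the 6 general counterparts, 5 had a pooled call and 3 a kept peak, and of the 10 copies, 1 had a pooled call, which was also kept. The share with a call was 83.3% (interval 35.9 to 99.6%) for the general genes and 10% (0.253 to 44.5%) for the copies, on either side of the 49.3% of protein-coding genes. The kept shares were 50% (11.8 to 88.2%) for the general genes and 10% (0.253 to 44.5%) for the copies, against 22.9% of protein-coding genes, which lies inside both intervals. With so few genes, the intervals of both measures overlap between general genes and copies. The stronger 50% of the kept peaks included 0 of the 6 general genes and 1 of the 10 copies, eIF4G2, against 13.2% of protein-coding genes. Counts this small give no order between the groups.

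Gene by gene, eIF4E1 had a kept peak at rank 3097, and its copies eIF4E3, eIF4E4, eIF4E5, eIF4E6 and eIF4E7 had no call in any of the 3 lists. The nearest pooled summits were 31078 bp from eIF4E3, 23503 bp from eIF4E4, 1259 bp from eIF4E5, 7097 bp from eIF4E6 and 1181 bp from eIF4E7. eIF3d1 ranked 3886 and eIF3d2 had no call, with the nearest pooled summit 49076 bp away. eIF3f1 ranked 10938, whereas eIF3f2 had no pooled call at its start and a replicate 3 call at rank 18989. eIF4H1 ranked 7081 and eIF4H2 had no call. The eIF3g pair lacked a call at both the general gene and the copy, at eIF3g1 and at eIF3g2.

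The exception was eIF4G2, for the scaffold copy needed in spermatocytes, which had a kept peak at rank 1710 in the pool, 1792 in replicate 1 and 1802 in replicate 3. Its general counterpart eIF4G1 stood lower in the pool, at 3800. The eIF4G2 summit (chr3R:23819097-23819520) was 72 bp upstream of the eIF4G2 start and equally far from a start of CG33111, and it lay in an intron of CG34355, so the call cannot be assigned to eIF4G2 alone. All 32-base words within 250 bp of the 5′ ends of the 10 copies occurred once in the genome. All 10 copies but eIF4G2 have a single annotated start, a class of genes in which calls were less frequent, as given further on. Among the general counterparts, eIF4G1, eIF3d1, eIF3f1 and eIF3g1 have a single start too, and all of these but eIF3g1 had a pooled call. The part of start number in the difference was not tested.

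The replicate lists gave similar shares. Each replicate had a call at 35 of the 52 genes (67.3%), against 50.4% of protein-coding genes in replicate 1 and 50.5% in replicate 3. Among the 4402 strongest calls, replicate 1 had 19 of the 52 genes (36.5%) against 22.4% of protein-coding genes, and replicate 3 had 20 (38.5%) against 23.3%. Of the 20 genes with a kept peak, 18 were among the 4402 strongest in both replicates, and the remaining 2 in a single replicate, eIF4G1 in replicate 3 and eIF3a in replicate 1. Over protein-coding genes with a kept peak, 79.9% were among the strongest in both. The kept peaks were chosen by comparing ranks between these same replicates, so overlap among kept genes is no separate check. Calls in all 3 lists were present at 30 genes (57.7%), against 43.0% of protein-coding genes, and 13 genes had a call in none. Across the 30 genes called in all lists, Spearman's rho of the ranks in the replicates was 0.917, a description over genes that share a control file. It leaves out genes that a replicate lacks, such as eEF1delta, with rank 6403 in replicate 3 and no call in replicate 1. eIF2alpha, with rank 9027 in replicate 1 and no call in replicate 3, is left out too. For kept genes the larger of the replicate ranks was at the median 1.5 times the smaller, and at most 2.55 times, at eIF4G1.

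**Figure D3:**
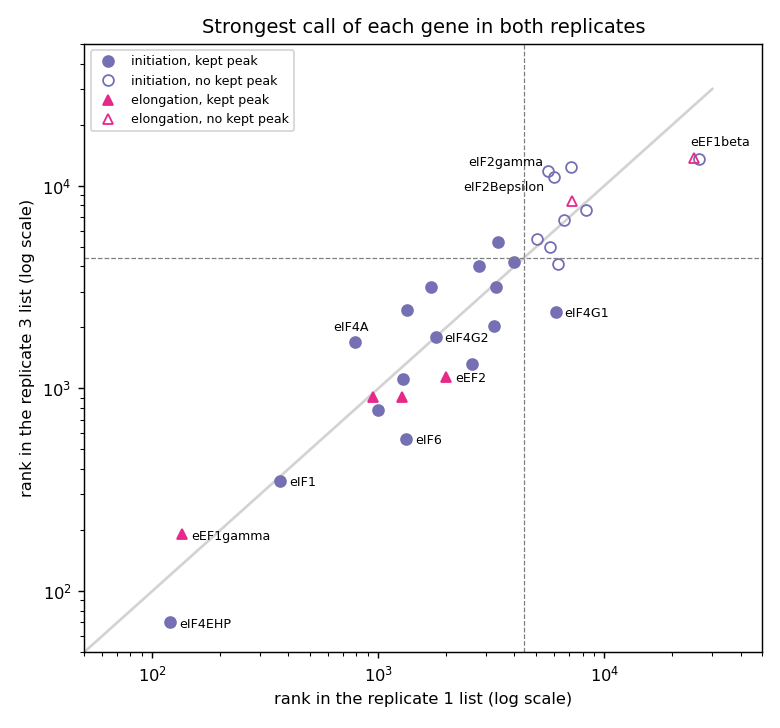
Rank of the strongest call within 500 bp of a start in replicate 1 (x) and replicate 3 (y), both on log scales, for each gene called in both; filled symbols have a kept peak, circles are initiation and triangles elongation factor genes, and dashed lines mark rank 4402. Genes lie along the grey line of equal rank, with eIF4EHP and eEF1gamma at the strong end, and eIF4G1 has ranks of 6084 and 2387.

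Calls sat close to the starts. The summit of the strongest call was upstream of the nearest own start at 28 of 33 genes, and within 100 bp of it at 21, with a median of -61 bp and a range of -391 to 111 bp. Over all called protein-coding genes, 42.0% had the summit within 100 bp, 81.5% upstream, and the median was -100 bp. Of the kept peaks alone, 15 of 20 had the summit upstream, 13 of 16 at initiation and 2 of 4 at elongation factor genes, against 90.7% over kept protein-coding genes. The 4 kept elongation factor summits lay between -76 and 7 bp. By annotation, 19 of the 33 summits fell between genes, 11 in untranslated or non-coding exons and 3 in introns. In 24 genes the start nearest to the summit was the gene's own, counting ties, and in 9 another gene was nearer (eIF4EHP, eIF1, eIF6, eIF1A, eIF3a, eIF3l, eIF2gamma, eIF3b and eEF1beta). Of the called genes, 12 had 2 pooled calls within 500 bp of a start. A weaker call lay nearer to the gene's start at eIF1 (rank 2281), eIF1A (5364), eIF2beta (7423) and eIF3b (16089). Of these nearer calls, only that of eIF1 was kept. eIF2gamma lies head to head with Set, a gene on the other strand whose start was 40 bp from the summit. A start of Su(var)3-9 also lay within 500 bp of that summit.

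**Figure D4:**
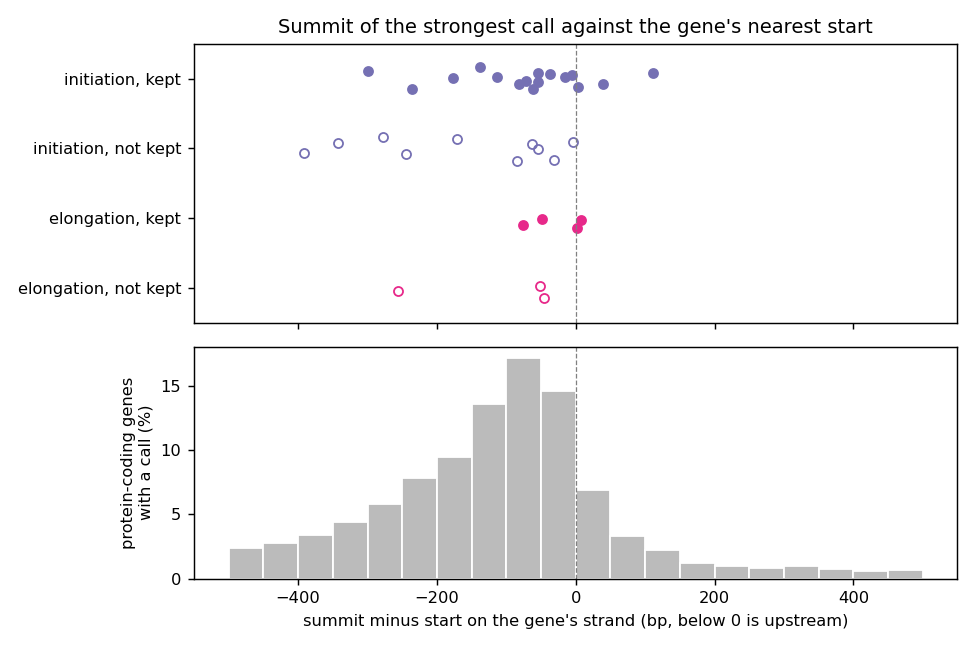
Position of the summit of the strongest pooled call against the nearest start of the gene, in bp along the gene's strand (below 0 is upstream). The upper panel has a point for each of the 33 called genes, kept (filled) or not (open), and the lower panel gives the share of called protein-coding genes per 50 bp bin, in percent. Points gather just upstream of the start, and kept elongation factor genes lie between -76 and 7 bp.

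The layout of the genes moved with the calls. Among genes with a single annotated start, 14 of 32 translation factor genes had a pooled call (43.8%) and 7 a kept peak (21.9%), against 41.3% and 18.4% of protein-coding genes of that kind. With 2 or more starts, 19 of 20 had a call (95%) and 13 a kept peak (65.0%), against 71.3% and 35.4%. The 32 genes with a single start include every duplicated copy but eIF4G2, and none of those copies had a pooled call. The shares near those of other genes with a single start hold only with the copies counted, and are higher without them. Among genes with a head-to-head neighbour (a start on the other strand within 1000 bp upstream), 18 of 26 had a call (69.2%) and 10 a kept peak (38.5%), against 67.4% and 38.5%. Without such a neighbour, 15 of 26 had a call (57.7%) and 10 a kept peak (38.5%), against 38.0% and 13.3%. Of 7 translation factor genes on X, 3 had a call and 0 a kept peak, against 58.7% and 25.0% of protein-coding genes there. The part of gene layout in the shares of the groups was not tested.

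The DRE was found at more of the translation factor calls than at promoter calls in general. Sequence within 100 bp of the summit held the octamer TATCGATA at 10 of 33 strongest calls (30.3%), against 6.99% of the 9193 pooled calls at any start, and at 6 of the 20 kept ones (30.0%), against 11.0% of 2634. The 6 kept genes are eEF1gamma, eIF1, eIF2A, eIF1A, eIF4B and eIF3a, and the others with a call are eIF2gamma, eIF3f1, eIF2alpha and eEF1delta. At eIF1, eIF1A, eIF3a and eIF2gamma the summit lay nearer to a start of another gene, so the octamer there cannot be credited to the translation factor gene alone. The shorter core TCGATA, which the octamer contains, was at 17 of 33 calls (51.5%) against 20.4%, and at 12 of 20 kept calls (60.0%) against 29.0%. Both strands were read. The 33 calls are the strongest of each gene, while the 9193 are all calls at any start, strong or weak, so these sets differ in strength. Mean GC content in the same windows was 39.5% ± 7.99 (SD, n = 33) at translation factor calls and 39.1% ± 8.28 (SD, n = 9193) at all promoter calls. A match is a string of letters, not evidence that a factor binds there.

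Promoter sequence alone, read from 250 bases before to 50 after the 5′ end of each gene whether called or not, gave a similar difference from other genes. The octamer was in 14 of 52 translation factor genes (26.9%), against 9.36% of protein-coding genes, and the core in 28 (53.8%), against 27.7%. Within the set, the octamer was in 7 of the 20 genes with a kept peak (35.0%), in 5 of the 13 with a weaker call (38.5%) and in 2 of the 19 with no call, namely eIF2Bbeta and eIF4E6. The core was in 65.0% of genes with a kept peak, 53.8% of those with a weaker call and 42.1% of those with no call. By class, the octamer was in 12 of 44 initiation (27.3%) and 2 of 8 elongation factor genes (25.0%), and in 1 of the 10 germline paralogues (10%). Genes with a strong call and no octamer in this window include eIF4EHP, eIF1, eEF5 and eEF1alpha1.

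**Figure D5:**
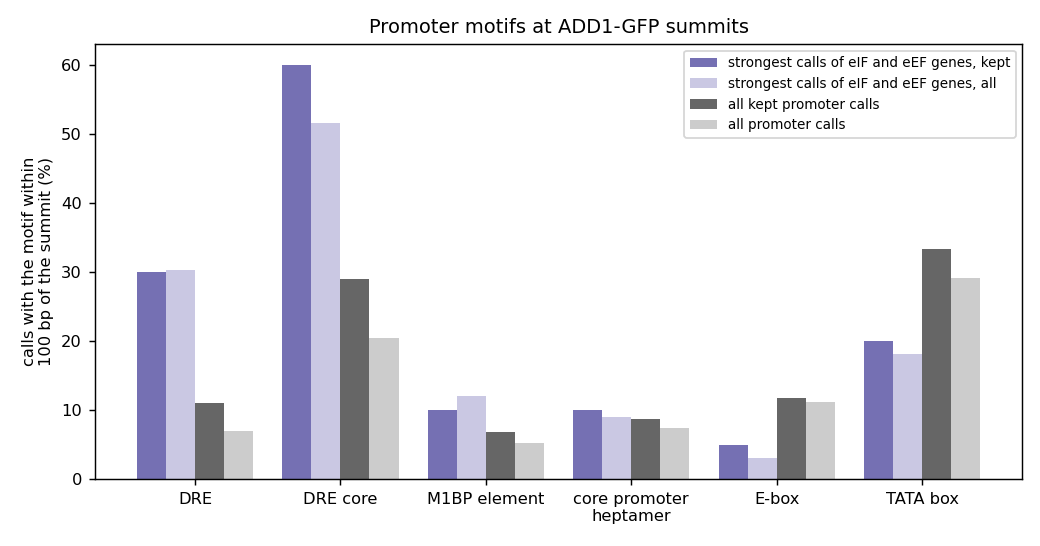
Share of calls, in percent, with each motif within 100 bp of the summit on either strand, for the 20 kept and all 33 strongest calls of translation factor genes and for the 2634 kept and all 9193 promoter calls. The motifs are the DRE (TATCGATA), its core (TCGATA), the M1BP element (GGTCACAC), the heptamer GGTATTT, the E-box CAGCTG and the TATA box (TATAAA); the DRE bars reach 30.0% and 30.3% beside 11.0% and 6.99%.

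GGTCACAC, the core of the element bound by the factor M1BP, was at 4 of 33 strongest calls (12.1%) against 5.2% of promoter calls, at eEF1alpha1, eIF2A, eIF3l and eIF2alpha. GGTATTT was at 9.09% against 7.42%. CAGCTG, a form of the E-box, was at 1 call (3.03%, eIF3h) against 11.2%, and TATAAA at 6 (18.2%) against 29.2%. CTTTT with its C within 5 bp of the 5′ end, the core of the TCT initiator, was at 3 of 52 genes (5.77%), eIF4A, eIF3f1 and eIF3i, against 1.93% of protein-coding genes. Counted at any start, it was at the same 3 genes, against 2.87% of protein-coding genes. These 3 differ widely in ADD1-GFP, with ranks of 1229 at eIF4A and 10938 at eIF3f1 and no pooled call at eIF3i.

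A further list of 30 genes that regulate or complete translation, of which 28 are in the annotation, also had calls at most of its members. A pooled call was present at 25 of the 28 (89.3%, interval 71.8 to 97.7%) and a kept peak at 15 (53.6%, 33.9 to 72.5%), against the 49.3% and 22.9% of protein-coding genes given above, with a median rank of 3780. The highest ranks were those of eRF1 (735), which ends translation at stop codons, HBS1 (1081), which rescues stalled ribosomes, PPP1R15 (1695), a phosphatase subunit that acts on eIF2alpha, MCTS1 (1763), a partner in reinitiation, and Lk6 (1769), the kinase that phosphorylates eIF4E. The MCTS1 call was nearer to the start of rux. Gcn2, which codes for an eIF2alpha kinase, the mitochondrial elongation factor gene mEFTs and mTor had no pooled call.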

How the data were processed

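ChIP-seq of ADD1-GFP was done in 2 biological replicates of whole embryos, with chromatin sheared to 200 to 800 bp per the labels. The authors deposited narrowPeak lists on dm6 of 30000 calls for each replicate and for the pool, plus the thresholded list of 4402 peaks. The lists of 30000 hold peaks and background, as input for IDR. Per the deposited file lists, calls used a shared control. The signal values were deposited by the authors and served only to rank calls inside each list. The −log10 q-value that the authors deposited has a ceiling of 3.92 in the pool and was not used to rank. The aligner and peak-calling program were not given in the sources used here, read depth is unknown, and intervals (Clopper-Pearson) cover counting error only. Lists on dm3 were not used.

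Genes and 24111 starts came from the Ensembl release 115 annotation and sequence from the Release 6 assembly. For each gene the call with the highest signal among summits within 500 bp of a start was taken in each list with Python 3.11.15, pandas 2.3.3 and numpy 2.4.6. The kept peaks were matched to the pooled calls by position and signal. The window rule was checked on simulated positions. Nothing was tested, because there is 1 group and genes are not replicates. Members, roles and lists were chosen with earlier results of these data known. Named genes are all elongation factor genes, all germline paralogues with their counterparts, the 12 initiation factor genes of highest rank, all genes with no call, and the 5 highest of the further translation genes; other genes named were chosen after their values were seen. Alternatives were windows of 200 and 1000 bp, 5′ ends only, calls nearest to the gene's own start, the middle of the call, the stronger 50% of the kept peaks, each replicate alone, replicate calls matched by 50% overlap, and other gene groupings.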

Additional observations from a re-analysis of the deposited data

How the results depend on the processing

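Of 92 alternative values, 83 stayed close to the reported ones and 9 moved. The rule was loose: close meant within a fixed ratio of a count or median rank, or inside the exact interval of a percentage. A fall in genes with a call from 33 to 27, when only calls nearest to the gene's own start counted, was still close. With the stronger 50% of the kept peaks alone, a kept peak was left at 13 translation factor genes, 9 initiation factor genes and 0 general counterparts, while the germline paralogues stayed at 1, against 13.2% of protein-coding genes. At 1000 bp, germline paralogues with a call numbered 2, through eIF3f2, and leaving out each replicate in turn gave 1 to 2, again through eIF3f2. Genes with a kept peak ranged over 16 to 21 under the other settings. The 200 bp window lost eIF4EHP, the 1000 bp window gained eIF2Bbeta through the peak next to Ugalt, and 5′ ends only lost eIF4A. Counting only calls nearest to the gene's own start left 16 kept genes, against 16.8% of protein-coding genes, and lost eIF4EHP, eIF6, eIF1A and eIF3a. Without replicate 3, eIF4G1 was lost, and without replicate 1, eIF3a was lost and eIF2beta gained. With eIF4E1 and eIF4G1 alone set against eIF4E3 and eIF4G2, a call and a kept peak were at 100% of the general genes and 50% of the germline pair. No paired analysis was possible because the libraries form a single group. Depth is unknown, so a missing call says only that no region there was among the 30000 of its list.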

Other observations

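Pooled calls inside the transcribed body, more than 500 bp from any of the gene's own starts, were most numerous at eIF5B, eIF4EHP and eIF4G1. Summits near starts of other genes inside the body were not set apart, and no share over other genes is given. The long genes eIF4B and eIF4G2 held 0. eIF5B held 13, of which 2 were kept with the best at rank 2509, which is above the rank of 3004 at its start. eIF4EHP held 12, of which 3 were kept, and eIF4G1 on chromosome 4 held 12, of which 0 were kept. eEF2 held 4.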
